A study of Mus musculus with 6 samples.

Results

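H3K9me3 peaks at the odorant and pheromone receptor genes of C2C12 cells, an established line of mouse myoblasts, were taken as every peak of the deposited H3K9me3 list that overlapped the 10 kb on either side of, or the body of, a gene whose symbol starts with Olfr, Vmn1r or Vmn2r. The annotation holds 1688 such genes (1251 Olfr, 257 Vmn1r and 180 Vmn2r, pseudogenes included), and 600 of the 80480 MACS peaks met the rule. With them stood 169 of the 23268 broad islands called by SICER and 4 of the 1191 Setdb1 sites. The peaks came from 1 H3K9me3 ChIP-seq library of unstimulated myoblasts set against its own input DNA. Setdb1 ChIP-seq was run on myoblasts without addition, with the solvent DMSO and with the ligand Wnt3a (50 ng/ml for 24 h), and a Setdb1 input was sequenced. The Setdb1 list is a single list that does not name its library. Each group holds 1 library, so no difference can be tested across samples, and every interval given is an exact 95% interval for counting error only. All groups are the same muscle cell line, and no olfactory or vomeronasal cells were studied.

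Olfactory receptors (Olfr) are G-protein-coupled receptors with which sensory neurons of the nose detect odorants, and Vmn1r and Vmn2r are the receptor families of the vomeronasal organ, which detects pheromones. The genes lie in clusters of close relatives that arose by duplication, and each olfactory sensory neuron expresses a single olfactory receptor gene out of the whole repertoire. In these neurons the unchosen genes are packed in heterochromatin that carries H3K9me3. Setdb1 is one of the enzymes that write this mark, and is best known for silencing retroviral repeats and clustered zinc finger genes.

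Sequences under 5 of the 12 members of highest score, each from another cluster or place, are shown first, because the peak of highest score lies on a tandem repeat. Each line holds 100 bases on either side of the summit in mm9, plus strand. At chr7:12595968-12596168, 4.04 kb past the pseudogene Vmn1r-ps60, capitals mark alternate copies of a 22-base unit, matched with up to 4 mismatches. In the other lines capitals mark the 21 bases centred on the summit. The Olfr281 line is chr15:98298356-98298556, the Olfr95 line chr17:37354770-37354970, the Vmn1r42 line chr6:89785738-89785938 and the Olfr718-ps1 line chr5:143891079-143891279. Of the 5 summits 4 were intergenic within the windows, and that near Olfr281 lay just past the 10-kb edge.
Vmn1r-ps60 peak: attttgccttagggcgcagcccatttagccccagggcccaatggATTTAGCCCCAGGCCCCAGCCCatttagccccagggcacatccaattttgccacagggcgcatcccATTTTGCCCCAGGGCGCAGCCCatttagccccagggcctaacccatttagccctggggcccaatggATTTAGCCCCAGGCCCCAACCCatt
Olfr281 peak: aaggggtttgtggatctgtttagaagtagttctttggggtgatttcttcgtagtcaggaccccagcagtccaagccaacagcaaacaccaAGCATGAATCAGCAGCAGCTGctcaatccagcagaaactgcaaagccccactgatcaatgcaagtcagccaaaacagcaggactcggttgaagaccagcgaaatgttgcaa
Olfr95 peak: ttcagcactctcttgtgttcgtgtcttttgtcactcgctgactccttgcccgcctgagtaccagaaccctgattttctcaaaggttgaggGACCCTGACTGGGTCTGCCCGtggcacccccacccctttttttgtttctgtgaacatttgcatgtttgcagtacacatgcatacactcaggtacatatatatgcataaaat
Vmn1r42 peak: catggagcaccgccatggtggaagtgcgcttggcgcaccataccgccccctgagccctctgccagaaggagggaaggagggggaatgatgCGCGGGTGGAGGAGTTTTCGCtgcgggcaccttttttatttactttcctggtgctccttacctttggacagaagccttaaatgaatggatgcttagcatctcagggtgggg
Olfr718-ps1 peak: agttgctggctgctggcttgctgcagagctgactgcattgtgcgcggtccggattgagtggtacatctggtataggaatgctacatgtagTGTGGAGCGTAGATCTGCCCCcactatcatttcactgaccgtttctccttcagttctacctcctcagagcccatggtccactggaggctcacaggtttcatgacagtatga

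The repeat line is richest in G and C, at 60.2%, and holds 5 matched copies of the unit. The commonest form of the unit in the peaks used was read as
22-base unit: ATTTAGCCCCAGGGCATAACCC
in the direction of the Vmn1r-ps60 line. Of the other lines, that of Olfr95 resembled 33 other H3K9me3 peaks and that of Olfr281 resembled 3, counting alignments of at least 100 bases at 80% identity or more within 150 bases of the summits. Those of Vmn1r42 and Olfr718-ps1 resembled none.

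Receptor genes held fewer and weaker peaks than their share of the genome. The 890 merged windows cover 33.3 Mb and held 18 peaks per Mb, where the 2556 sequenced Mb of the genome held 31.5. Uniform placement within each chromosome would put 1042 peaks there, so that the observed count was 0.576 of the expected (0.531 to 0.624). For peaks with a MACS score (minus 10 times the log10 of the p-value) of at least 50 the ratio was 0.372 (0.316 to 0.436), with 153 peaks observed and 410.8 expected. Such peaks made up 25.5% of the members (22.1 to 29.2) and 38.6% of all other peaks. Islands covered 2.48% of the window bases against 6.81% expected by chromosome. The members also lay less often in an island, at 38.7% (34.8 to 42.7), against 64.3% of the other peaks (63.9 to 64.6).

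The gap was smaller once mappability and GC content entered the expected number. The authors kept only reads with a single place in the genome, and 76.9% of the window bases had a 50-base sequence found at a single place, against 88.6% of the whole genome. The share was 85.3% for Olfr, 60.8% for Vmn1r and 63.3% for Vmn2r. On unique bases alone the ratio was 0.647, and in classes of equal GC content alone it was 0.813. Against an expectation built from unique bases within GC classes, chosen after the data were seen, the ratio was 0.920 (0.848 to 0.997) for all peaks and 0.813 (0.689 to 0.952) for those of score at least 50. All other protein-coding genes stood at 0.932 (0.922 to 0.942) by chromosome and at 0.816 by unique bases and GC. For all peaks the receptor genes were therefore below other coding genes on the first scale and above them on the second. At a score of at least 50 the second scale gave 0.813 for receptor genes and 0.835 for other coding genes. On these values a lack of the mark cannot be told apart from a lack of mappable, GC-rich sequence.

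By all peaks the 3 families were close to one another. Olfr windows held 411 peaks, or 19.4 per Mb, at 0.589 of the expected number (0.533 to 0.649). Vmn1r windows held 93 peaks, or 17.7 per Mb, at 0.645 (0.520 to 0.790), and Vmn2r windows held 96 peaks, or 13.9 per Mb, at 0.482 (0.390 to 0.588). The 3 intervals overlap one another. At a score of at least 50 Vmn1r stood at 0.637 (0.439 to 0.895), Olfr at 0.333 (0.269 to 0.407) and Vmn2r at 0.340 (0.220 to 0.501). Of the 33 Vmn1r peaks of that score, 15 lie on a tandem repeat described further on, and without them the Vmn1r ratio was 0.348 (0.206 to 0.551). The repeat group was built from the member of highest score and holds Vmn1r members only, so its removal had to lower this ratio and no other. The lower ratio is therefore not an independent comparison with the other families. Peaks of at least 8-fold enrichment made up 16.1% of the Vmn1r members (9.32 to 25.2), 8.33% of the Vmn2r members (3.67 to 15.8) and 3.65% of the Olfr members (2.06 to 5.95). Among the peaks that were not members they made up 8.86% (8.67 to 9.06). Of the 15 Vmn1r peaks concerned, 11 lie on the same repeat. By unique bases within GC classes the ratios were 0.891 for Olfr, 1.00 for Vmn1r and 0.978 for Vmn2r.

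**Figure D1:**
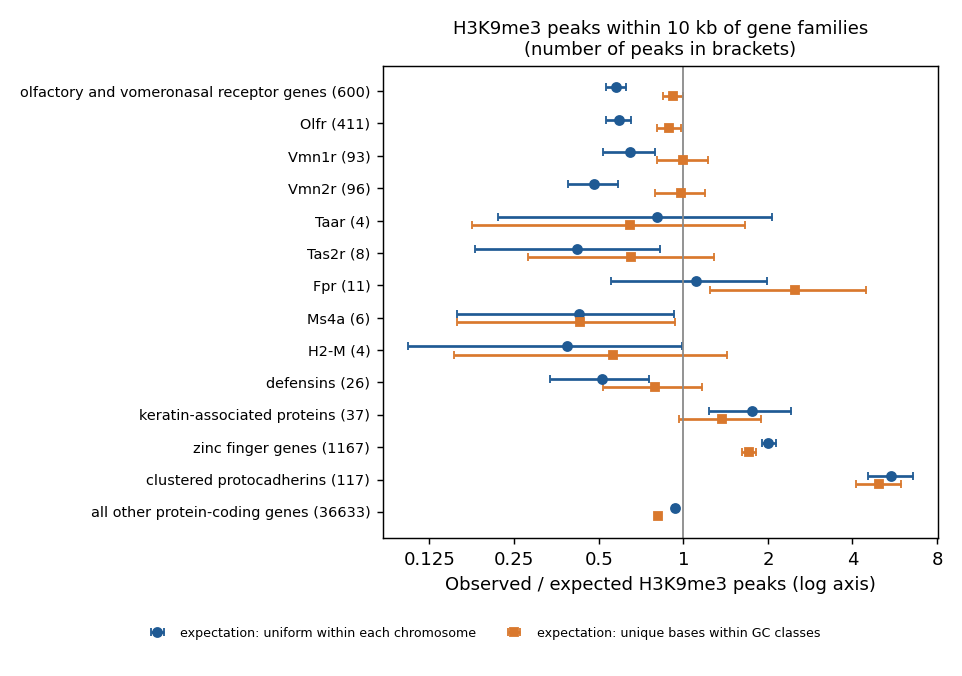
Observed over expected number of H3K9me3 peaks (log axis) within 10 kb of each gene family, with the number of peaks in brackets. Circles use uniform placement within each chromosome, squares use unique bases within GC classes, and bars are exact Poisson 95% intervals of the observed count. The receptor families lie at 0.482 to 0.645 by chromosome and at 0.891 to 1.00 by unique bases and GC.

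Among receptor-type genes, low counts of peaks by chromosome were not limited to Olfr, Vmn1r and Vmn2r. The bitter taste receptors (Tas2r) had 8 peaks at 0.419 of the expected number (0.181 to 0.826), led by a peak of 7.56-fold near Tas2r115 and Tas2r124. The Ms4a genes, some of which serve as odorant receptors in a subset of olfactory neurons, had 6 peaks at 0.425 (0.156 to 0.926), the highest an 8.52-fold peak near Ms4a10 and Ms4a15. The trace amine receptors (Taar) had 4 peaks at 0.808 (0.220 to 2.07), the highest of 6.87-fold near Taar7f. Formyl peptide receptors (Fpr), several of which are expressed in the vomeronasal organ, had 11 peaks at 1.11 (0.554 to 1.99), with 7.56-fold near Fpr-rs6 and 6.87-fold near Fpr-rs7. The H2-M genes, major histocompatibility genes of vomeronasal neurons, had 4 peaks at 0.385 (0.105 to 0.986), with 6.87-fold near H2-M9. Sweet and umami receptors (Tas1r) had 2 peaks, both near Tas1r2 and up to 5.84-fold. By unique bases within GC classes Tas2r stood at 0.650, Ms4a at 0.428, Taar at 0.648 and H2-M at 0.560. On that scale Fpr stood at 2.49 and Tas1r at 0.512, beside 0.920 for Olfr, Vmn1r and Vmn2r together.

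Other clustered families differed widely. Zinc finger genes, known targets of Setdb1, held 1167 peaks at 2.01 times the expected number (1.90 to 2.13) and 14% of their window bases lay in islands. The clustered protocadherins, adhesion molecules of neurons, held 117 peaks at 5.47 times the expected number (4.53 to 6.56) with 37.3% in islands. Keratin-associated proteins stood at 1.75 (1.23 to 2.41), defensins at 0.515 (0.336 to 0.755) and major urinary proteins at 0.166 (0.0452 to 0.425). By unique bases within GC classes zinc finger genes stood at 1.71 and protocadherins at 4.96. There keratin-associated proteins stood at 1.37, defensins at 0.796 and major urinary proteins at 0.673. At a score of at least 50, by chromosome, keratin-associated proteins fell to 0.726 (0.267 to 1.58). Zinc finger genes (2.94) and protocadherins (8.85) stayed above 1, and defensins (0.301) and major urinary proteins (0.0883) below. Only 24.4% of the window bases of the major urinary proteins were unique, against 89.7% for the protocadherins and 90.6% for the zinc finger genes. The zinc finger genes here are those whose symbol starts with Zfp, Zkscan or Zscan and a digit. Of the 600 members, 2 lay within 10 kb of such a gene as well. Zinc finger genes with other symbols were not counted.

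Counted by gene, 493 of the 1688 receptor genes had a peak within 10 kb, which is 29.2% (27 to 31.4), where 41.4% of the other annotated genes had one. Receptor genes are short, so the gene start is the fairer point of measure. From the start, 440 receptor genes (26.1%) had a peak within 10 kb, against 29.3% of the other genes. Islands lay within 10 kb of 194 receptor genes (11.5%) and of 26.8% of the other genes. The share of genes with a peak was 30.4% in Olfr (27.8 to 33.0), 21.4% in Vmn1r (16.5 to 26.9) and 32.2% in Vmn2r (25.5 to 39.6). It was 31.4% for pseudogenes (25.6 to 37.7) and 28.7% for protein-coding receptor genes (26.4 to 31.1), with overlapping intervals. The 30 receptor genes outside any cluster had a peak in 13 cases, or 43.3% (25.5 to 62.6), against 29% of the 1658 genes in clusters (26.8 to 31.2).

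Most peaks lay between the genes. A peak touched the body of 60 receptor genes (3.55%), and this was rare for Olfr (2.64%) and for Vmn1r (0.778%) and more frequent for Vmn2r (13.9%). These shares were not corrected for the length of the gene bodies. By summit, 483 members (80.5%) were intergenic, where 73.5% of the window bases were, at 19.7 peaks per Mb (18 to 21.6). Within 1 kb of a receptor start there were 34 summits, at 10.1 per Mb (7.0 to 14.1). Of these bases 84.4% were unique, and of the intergenic ones 78.2%. The GC content of these parts was not taken into account, and the cause of the difference in density was not tested. The rest of the receptor gene bodies held 42 summits away from exons, at 10.2 per Mb (7.33 to 13.7), and 4 in exons, and 65.2% and 65.9% of these bases were unique. The 0.748 Mb in bodies of other annotated genes held 31 summits, at 41.5 per Mb (28.2 to 58.8).

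Around the starts of the 1441 protein-coding receptor genes the mark formed a trough. A peak covered the kilobase just upstream of 1.11% of the starts and the kilobase just downstream of 1.80%. The same bins held a peak at 4.44% and 5.43% of the 20909 other protein-coding genes, where the profile rose to a maximum. Islands showed the trough more smoothly, at 1.32% of receptor genes in the first kilobase downstream and 6.49% of the other genes. The difference in the shape of the profiles was not tested.

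**Figure D2:**
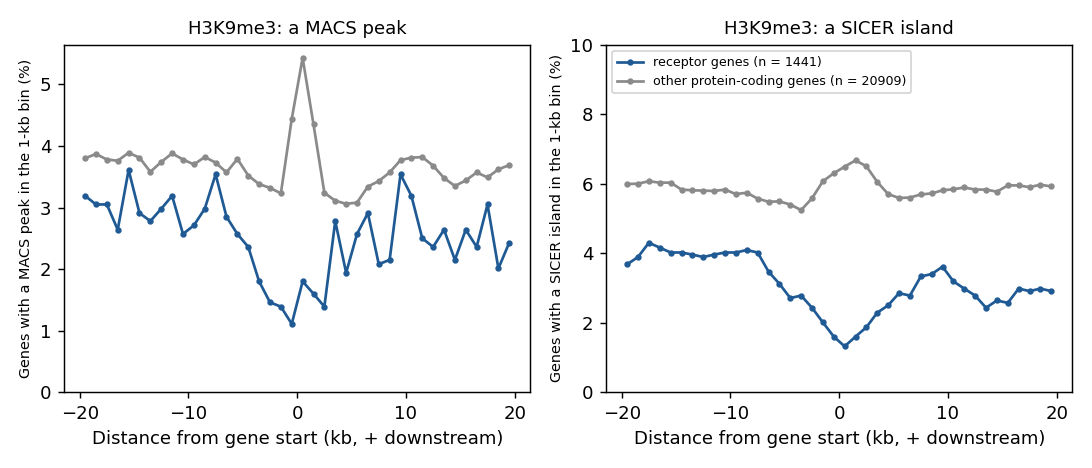
Percent of genes with a MACS peak (left) or a SICER island (right) in each 1-kb bin from 20 kb upstream to 20 kb downstream of the gene start, for 1441 protein-coding receptor genes and 20909 other protein-coding genes. Receptor genes dip to 1.11% just upstream of the start and 1.80% just downstream, where the other genes reach 4.44% and 5.43%.

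Most members were modest peaks. Their tags (sequenced fragments in the peak) ran from 10 to 207 with a median of 16, and fold enrichment over input ran from 3.46 to 25.4 with a median of 5.50. The other peaks had a median of 18 tags and the same median fold of 5.50. The members were 383 bases long in the median, the other peaks 423. A false discovery rate of at most 1% was reached by 4 members (0.667%) and by 1.05% of the other peaks, and the members' median was 2.96%. They occupied 454 separate places, of which 357 held 1 peak and 25 held 3 or more within gaps of 5 kb.

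The 3 members of highest fold belonged to one family by sequence. The member with the highest score had 207 tags, a score of 832.29 and an 18.12-fold enrichment, and its 1000 bases lay at chr7:12595704-12596703 in mm9. Alignment of the summits with each other linked it to 19 further members, 20 in all, every one of them nearest to a Vmn1r gene. They lay on 3 chromosomes, 4, 7 and 18. In each of them 73.6% to 84.0% of the bases equalled the base 22 positions further on, a value that reached at most 44.2% in any other member and 26.5% in their median. The 20 peaks are arrays of the same 22-base unit.

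The array peaks near Vmn1r-ps60 numbered 5 and carried up to 207 tags. On chromosome 4 the genes Vmn1r2 and Vmn1r3 had 8 array peaks between them, including the member of highest fold of all, 25.43-fold with 43 tags at chr4:3092174-3092649. The gene Vmn1r238 on chromosome 18 had 7 array peaks, the strongest with 189 tags and 10.97-fold and another with 87 tags and 14.57-fold. The group made up 20 of the 93 Vmn1r members and 7.90% of all member tags. Its median fold was 8.38, against 5.50 for the other 73 Vmn1r members. An enrichment of at least 8-fold was reached by 11 of the 20 and by 4 of the 73, beside 8.86% of the peaks that were not members. The median GC content at the summit was 57.8% in the group and 44.5% in the other 580 members. All 20 lay inside islands.

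The unit was then searched across the assembly on both strands with up to 4 mismatches. It was found 1477 times, and 1385 of these copies fell in 7 arrays of at least 5 copies, 47.5 kb in all, on chromosomes 4, 6, 7 and 18. All 7 arrays held at least 1 H3K9me3 peak, 26 peaks in total. The unit was derived from members, so the 4 arrays that contain the 20 members had to hold a peak and to lie beside a Vmn1r gene. The 3 arrays that the search added held 5 peaks. The 4 arrays within 10 kb of a receptor gene all stood beside Vmn1r genes, 1.68 to 6.52 kb away, and held peaks of up to 8.78- to 25.43-fold. The other 3, on chromosomes 6 and 18, held peaks of up to 6.18- to 6.87-fold. The group of members was built from the member of highest score, so this contrast in fold is not an independent comparison. The largest array, 14.8 kb with 518 copies on chromosome 18, held a single peak, but only 40.1% of its bases were unique. In the other 6 arrays 73.7% to 94.6% were unique. The arrays on chromosomes 4 and 6 and one of those on chromosome 18 lie in the first sequence after the centromere gap of the assembly, whereas the array near Vmn1r-ps60 lies inside a cluster of 40 receptor genes.

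**Figure D3:**
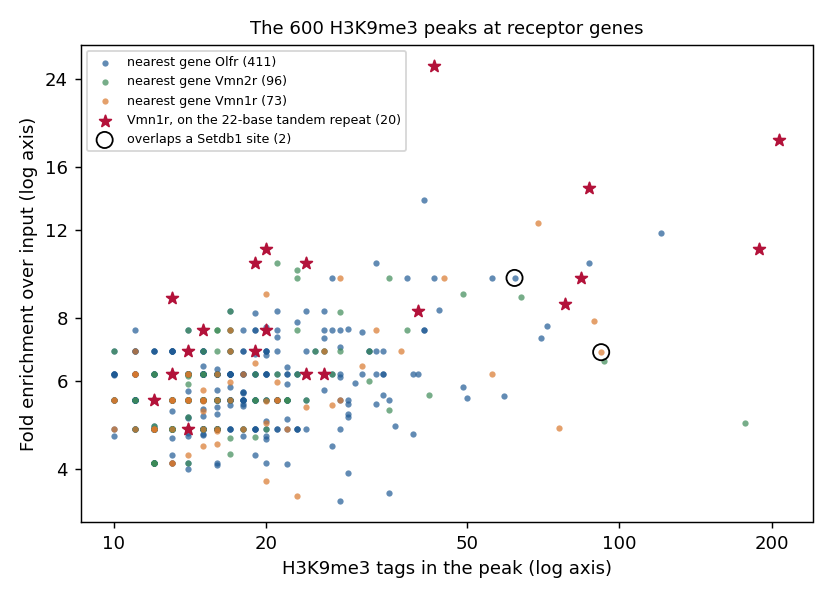
Tags and fold enrichment (both log axes) of the 600 H3K9me3 peaks at receptor genes, coloured by the family of the nearest gene. Stars mark the 20 peaks on the 22-base repeat, which include the peaks of 25.43-, 18.12- and 14.57-fold, and rings mark the 2 peaks that overlap a Setdb1 site.

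Outside the arrays the strongest members lay near both Olfr and Vmn1r genes. Near Olfr281 a peak of 1899 bases had 121 tags and 11.84-fold enrichment, and lay 9.75 kb from the gene and thus at the edge of the rule. Near Olfr212 a peak reached 13.74-fold with 41 tags, 708 bases from the gene. Olfr95 had a peak of 87 tags and 10.31-fold with 2 weaker ones beside it. In one Vmn1r cluster of chromosome 6, Vmn1r42 had a peak of 12.37-fold with 69 tags, Vmn1r-ps25 one of 7.91-fold with 89 tags and Vmn1r43 one of 6.84-fold with 92 tags. The 2 longest islands, of 32.2 and 24.8 kb, both lay at the pseudogene Vmn1r-ps1 on chromosome 2, which had 9 peaks within 10 kb, the most of any receptor gene. Of the 169 islands 4 were 20 kb or longer, 34 touched the body of a receptor gene, and 33 (19.5%) held no MACS peak. Of the other 23099 islands 881 were 20 kb or longer and 16% held no MACS peak.

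The members shared sequence with other peaks more often than the rest of the list did. A similar peak on another chromosome was found for 316 members (52.7%, 48.6 to 56.7), against 25.2% (23.3 to 27.2) of every 40th of the other peaks. At least 10 similar peaks were found for 28.3% of the members (24.8 to 32.1) and 13.8% of the sampled peaks (12.3 to 15.4). No annotation of repeats was used, so the kinds of repeat are not named.

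Joined across gaps of up to 500 kb, 1658 of the receptor genes formed 57 clusters of 3 or more genes, which span 59 Mb. A cluster's count takes every peak in its span and the 10 kb on either side, also those far from any receptor gene. By summit the clusters held 1186 peaks in all, where the members numbered 600. Of these clusters 16 held more peaks than their chromosome would give and 41 held fewer, 22 of them with an interval wholly below the expected number and 2 wholly above. In 34 clusters of 10 or more genes the density ran from 1.19 to 42.5 peaks per Mb with a median of 18.3. The rank correlation of density with the share of unique bases was 0.017 over the 57 clusters, with the density of the 500-kb flanks it was 0.45. The 5 clusters under 50% unique held 6.04 peaks per Mb together, but singly ran from 1.19 to 78.7. The 41 clusters of at least 75% unique held 21.8 together and ran from 0 to 82.4. Neighbouring clusters share a chromosome and its background, so these values are descriptions.

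The 3 largest clusters, all of Olfr genes and all 80.9% to 86.3% unique, differed in density. The cluster from Olfr987 to Olfr1274-ps on chromosome 2, with 268 genes, held 149 peaks, or 29.3 per Mb (24.8 to 34.4). The cluster from Olfr543 to Olfr692 on chromosome 7, with 145 genes, held 14, or 4.81 per Mb (2.63 to 8.06), and the cluster from Olfr151 to Olfr986 on chromosome 9, with 97 genes, held 27, or 10.8 per Mb (7.13 to 15.7). The interval of the first overlaps neither of the others. A peak lay within 10 kb of 40.3% of the genes in the first, 9.66% in the second and 19.6% in the third. Within the chromosome 7 cluster 49 receptor genes in a row, from Olfr603 to Olfr646, had no peak within 10 kb, and the longest such run on chromosome 2 was 17 genes. Set against their own chromosomes the ratios were 0.604, 0.248 and 0.505.

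The densest of the 34 clusters was that of the V2R genes from Vmn2r57 to Vmn2r63 on chromosome 7, with 66 peaks, 42.5 per Mb (32.8 to 54.0), of which 25 had a score of at least 50. Of its 14 receptor genes 8 had a peak within 10 kb. This cluster was followed by Olfr20 to Olfr412 on chromosome 11 with 36 peaks, 34.8 per Mb (24.4 to 48.2), and by Vmn1r-ps53 to Vmn1r-ps69 on chromosome 7 with 55 peaks, 34.1 per Mb (25.7 to 44.4). The third includes the array near Vmn1r-ps60 and had 5 peaks in its flanks of 1 Mb in all. The emptiest were 3 other clusters of chromosome 7. Vmn2r29 to Vmn2r-ps49 held 1 peak (1.19 per Mb, 0.0300 to 6.61), Vmn2r37 to Vmn1r71 held 3 (1.25 per Mb, 0.258 to 3.65) and Vmn1r91 to Vmn1r183 held 11 (2.64 per Mb, 1.32 to 4.72). Only 14.1%, 31.8% and 16.5% of their bases were unique, and few peaks cannot be told apart from few mappable reads there. No peak at all lay in 3 clusters, Olfr275 to Olfr270 on chromosome 4, Olfr462 to Olfr464 on chromosome 11 and Olfr164 to Olfr171 on chromosome 16, of 3 to 8 genes and 0.0460 to 0.359 Mb. Their expected counts were 5.69, 1.66 and 6.48, and the upper limit of a count of 0 was 22.2, 80.1 and 10.3 peaks per Mb.

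**Figure D4:**
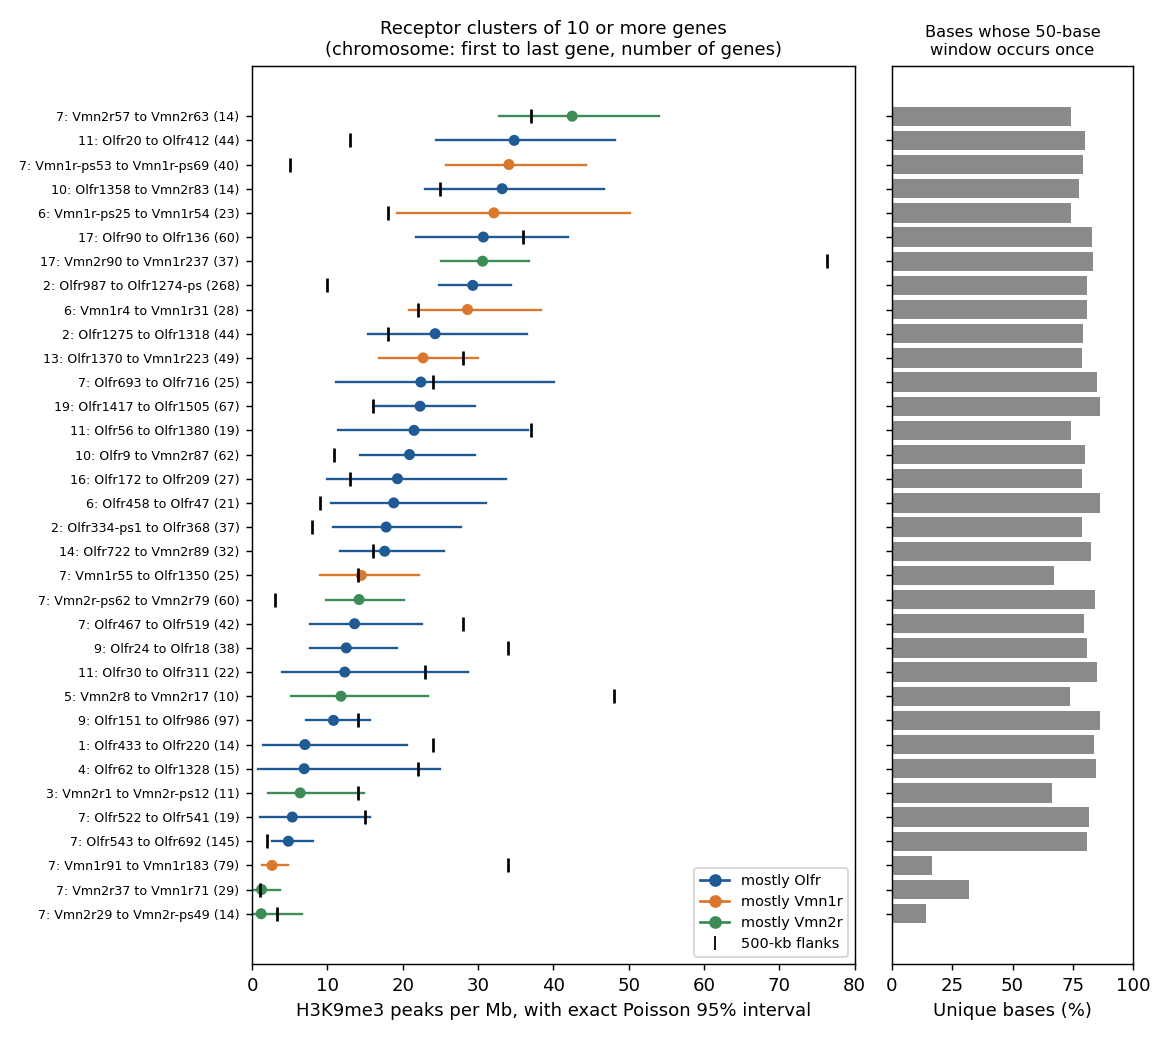
Left, H3K9me3 peaks per Mb with exact Poisson 95% intervals in the 34 receptor clusters of 10 or more genes, named by chromosome, first and last gene, with the number of genes in brackets; bars across mark the density in the 500-kb flanks. Right, percent of bases whose 50-base window is unique. Clusters of about 80% unique bases range from 4.81 to 34.8 peaks per Mb, and the 3 lowest are under 32% unique.

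Across the cluster borders the change depended on the measure and was smallest per unique base. The clusters together held 20.2 peaks per Mb (19.1 to 21.4) and their flanks 24.6 (23.3 to 25.9), a ratio of 0.821. Per unique base the values were 28.1 and 28.9 peaks per Mb. Peaks of score at least 50 fell from 10.2 per Mb in the flanks to 6.25 inside. Islands covered 3.13% inside and 4.16% outside. The outermost 50 kb inside the border held 20.5 peaks per Mb (16.9 to 24.6) and the first 50 kb outside held 28.0 (23.9 to 32.8), while the share of unique bases rose from 75% to 81.4%. Per unique base these bins held 27.3 and 34.4 peaks per Mb. One by one, 29 of the 57 clusters were denser than their own flanks.

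**Figure D5:**
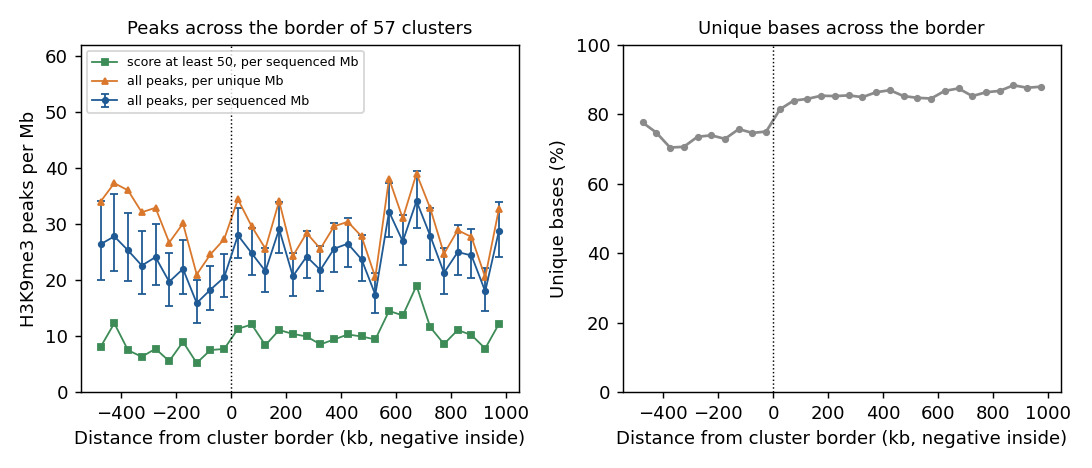
H3K9me3 peaks per Mb in 50-kb bins by distance from the border of the 57 clusters (negative inside), per sequenced Mb with Poisson 95% intervals, per unique Mb, and for peaks of score at least 50; the right panel gives the percent of unique bases. Densities of 15.9 to 27.8 per Mb inside stand beside 17.4 to 34.1 outside.

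Setdb1 sites at receptor genes were fewer than uniform placement would give. There were 4 sites within 10 kb where uniform placement gives 15.3, a ratio of 0.262 (0.0714 to 0.671). No expectation by unique bases or GC content was computed for Setdb1. A lack of Setdb1 therefore cannot be told apart from a lack of mappable or GC-rich sequence. A site lay within 10 kb of the body of 4 receptor genes (of 1688) against 3.19% of the other genes, and receptor genes are short. Zinc finger genes had 41 sites against 8.15 expected, and the protocadherins 2 against 0.358. Within bases covered by H3K9me3 regions the receptor windows held 2 sites against 3.98 expected (ratio 0.502, 0.0608 to 1.81), so at this number of sites a lack beyond that of the mark itself was not detectable. Of the 600 members 2 overlapped a Setdb1 site (0.333%, 0.0404 to 1.2), against 1.00% of the other peaks.

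The 4 sites were of unlike kinds, and 3 are shown with the 21 bases at the Setdb1 summit in capitals. The Vmn1r43 line is chr6:89816721-89816921, the Olfr718-ps1 line chr5:143890921-143891121 and the Olfr986 line chr9:39999799-39999999, all mm9, plus strand.
Vmn1r43 Setdb1 site: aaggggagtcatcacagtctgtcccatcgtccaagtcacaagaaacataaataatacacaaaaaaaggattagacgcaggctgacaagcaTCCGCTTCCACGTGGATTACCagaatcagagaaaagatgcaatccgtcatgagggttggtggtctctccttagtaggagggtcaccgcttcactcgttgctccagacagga
Olfr718-ps1 Setdb1 site: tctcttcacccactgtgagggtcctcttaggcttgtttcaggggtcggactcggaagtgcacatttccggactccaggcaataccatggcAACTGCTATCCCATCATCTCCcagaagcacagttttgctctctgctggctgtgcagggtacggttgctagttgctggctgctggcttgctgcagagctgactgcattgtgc
Olfr986 Setdb1 site: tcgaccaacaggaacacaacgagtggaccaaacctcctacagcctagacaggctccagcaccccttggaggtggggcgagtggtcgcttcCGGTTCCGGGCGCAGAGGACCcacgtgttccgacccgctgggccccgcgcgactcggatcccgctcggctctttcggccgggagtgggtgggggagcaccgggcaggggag

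Near Vmn1r43 the site was 2.39 kb from the gene, had 33 tags and 7.38-fold enrichment, and lay inside an H3K9me3 peak of 92 tags and an island of 9.20 kb. Near Olfr718-ps1 the site had 40 tags and 7.38-fold and overlapped an H3K9me3 peak of 62 tags and 9.62-fold, the summits of both being shown above. Both places were among the 12 members of highest score. The site near Olfr986 lay 3.69 kb from the receptor gene but touched the body of the zinc finger gene Zfp202, on sequence of 68.7% GC with 19 CpG dinucleotides in 201 bases, and overlapped no H3K9me3 region. The site near Olfr1373, at chr11:51948156-51948526, lay 6.88 kb from Ppp2ca, a phosphatase subunit, and 9.57 kb from the receptor, and likewise overlapped none. A member of 6.18-fold lay close by, at chr11:51948949-51949339. The summit of this Setdb1 site lies in a long non-coding RNA gene, Gm16953.

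Genes that act with the receptors in sensory neurons were closer to their expected number of peaks by chromosome. Of 22 genes of olfactory and vomeronasal signalling, 13 had a peak within 10 kb (59.1%, 36.4 to 79.3, background 41.4%) and 7 within 10 kb of the start (31.8%, background 29.3%). Long genes weigh on this list: Pde1c held 29 of its 84 peaks and Ano2 held 28. The highest folds were 9.62 at Adcy3, the adenylyl cyclase of odorant transduction, 9.62 at the G-protein subunit gene Gng13 and 8.59 at Gnao1, the G-protein alpha subunit of V2R neurons. The factors of receptor choice were 25 annotated genes for 24 symbols, as Ebf1 is annotated more than once. Of these genes 18 had a peak within 10 kb (72.0%, 50.6 to 87.9, background 41.4%). Within 10 kb of the start 9 had one (36.0%, background 29.3%). Long genes weigh here too: Nfia held 50 of the 123 peaks and Bcl11b held 20. Kdm1a, the histone demethylase needed for receptor choice, had a peak of 11.68-fold and a Setdb1 site, and Ehmt1, an H3K9 methyltransferase, had one of 10.31-fold. The transcription factor genes Bcl11b and Ebf3 also reached 10.31-fold, and Nfib had 2 Setdb1 sites. Peaks per Mb at the signalling genes were 1.25 times the expected number (0.998 to 1.55) and at the factors 1.19 times (0.985 to 1.41), so both intervals include 1. By unique bases within GC classes the ratios were 0.884 and 0.961, beside 0.920 for the receptor genes, and at a score of at least 50 they were 0.524 and 0.836, beside 0.813.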

How the data were processed

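The data are 3 deposited lists from C2C12 ChIP-seq: H3K9me3 peaks (MACS), H3K9me3 islands (SICER) and Setdb1 peaks (MACS). The authors aligned reads to mm9 with Bowtie 0.12.7, keeping reads with a single reportable place, removed PCR duplicates and called peaks over input with MACS 1.4. That alignment allowed mismatches, whereas the unique bases used here rest on exact matches. Deposited values were used as given: tag counts per peak, a score of minus 10 times the log10 p-value, the fold enrichment ratio over input, and the false discovery rate in percent. Total reads per library are not in these lists, so depth is unknown, and weak peaks depend on it. Keeping unique reads removes signal from near-identical gene copies.

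Genes came from GENCODE vM1 on NCBIM37, the Ensembl name of the mm9 sequence. An overlap of 1 base with the gene body extended by 10 kb counted. Expected numbers were computed, not simulated, from uniform placement on sequenced bases within each chromosome, on 50-base windows found at a single place in the genome by exact match, and in 20 classes of GC content of 100-kb bins. Clusters joined genes across gaps of up to 500 kb. Summit sequences were compared with BLAST+ 2.17.0, and intervals (exact Poisson for counts, Clopper-Pearson for shares) came from scipy 1.17.1. The expectations by chromosome and over the whole genome, and the search for the unit, were tested on simulated data. The expectations by unique bases or by GC classes were not. There is 1 library per group, so no test between groups was run.

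Named genes were those nearest the 12 members of highest score and the 6 of highest fold among scores of at least 50, those near a Setdb1 site, the ends of the 3 densest, 3 emptiest and 3 largest clusters, and up to 3 genes of each other list by fold. Genes beyond this rule, among them Vmn1r3, Vmn1r-ps1 and the clusters without a peak, were chosen after their values were seen. The members and lists were chosen with earlier results of these data known. The search for the 22-base unit, which was derived from the members on chromosomes 4 and 7, was added after the data were seen. Of the 12 members of highest score, 1 sequence per cluster or place was shown, and those on chromosome 18 and at Vmn1r2 were left out, as was the Setdb1 site near Olfr1373. The Setdb1 list names no library, and DMSO and Wnt3a libraries were not analysed here.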

Additional observations from a re-analysis of the deposited data

How the results depend on the processing

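Leaving out a replicate could not be run. No paired analysis was possible because there is 1 library per group. The ratio at receptor genes was below 1 under each of its 18 alternatives. The main ratio of 0.576 became 0.351, 0.461, 0.629 and 0.707 with windows of 0, 5, 20 and 50 kb, 0.372 for scores of at least 50, 0.377 for folds of at least 8 and 0.338 for peaks inside islands. On unique bases it was 0.647, in GC classes 0.813, and, added after the data were seen, 0.920 on unique bases in GC classes and 0.813 there for scores of at least 50. The other 7 alternatives, among them leaving out chromosome 2, 7 or X and leaving out the 20 repeat peaks, moved it less than its interval. For Olfr the ratio was 0.333 at scores of at least 50, 0.874 in GC classes and 0.891 with unique bases. For Vmn1r it was 0.845 on unique bases, 1.00 with GC classes as well, just past 1, 0.506 without the repeat peaks and 0.348 without them at scores of at least 50. For Vmn2r it was 0.340 at scores of at least 50, 0.625 on unique bases, 0.714 in GC classes and 0.978 with both.

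The island coverage ratio of 0.364 became 0.205 within gene bodies and 0.575 in GC classes. The share of receptor genes with a peak was 3.55%, 16.4%, 45.3% and 70.1% with windows of 0, 5, 20 and 50 kb, 26.1% from the gene start and 8.23% for scores of at least 50. The ratio of clusters to flanks was 0.764 with flanks of 100 kb, 0.614 for scores of at least 50 and 0.971 per unique base. Setdb1 sites numbered 0 within receptor gene bodies, where 3.34 were expected (ratio 0, up to 1.11). Clusters without a peak numbered 9 with a gap of 200 kb and 3 with 1 Mb. The causes of these shifts were not tested beyond what each setting changes by its construction.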
